A study of Mus musculus with 12 samples.

Results

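De novo lipogenesis, the making of fatty acids from carbohydrate in the liver, was followed through 10 genes. They were chosen by name for their place in the pathway, with earlier results of these data known. They are the enzyme genes Acly, Me1, Acaca, Acacb, Fasn, Elovl6 and Scd1 and the regulator genes Srebf1, Mlxipl and Thrsp. They were 10 of the 31253 gene symbols in the deposited tables. All 10 had a TPM (a relative transcript level, corrected for transcript length and scaled to nearly the same total in each library) above 1 in each of the 12 libraries, and all 10 were among the 12120 genes tested.

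In this pathway citrate exported from mitochondria is split into acetyl-CoA, acetyl-CoA is carboxylated to malonyl-CoA, and fatty acid synthase joins malonyl units into palmitate with reducing power from NADPH. Palmitate is then lengthened and desaturated before it enters triglycerides. In liver the genes are switched on together after a carbohydrate meal, by the insulin-responsive factor SREBP1c and the carbohydrate-responsive factor ChREBP, and switched off in fasting.

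The libraries were made from liver RNA of male C57BL6 mice in 4 groups of 3. The S302A DEN group carried a knock-in allele of Cugbp1 (gene Celf1, an RNA-binding protein) that replaces 1 serine by alanine (the S302A change), and received diethylnitrosamine (DEN, a liver carcinogen) at 50 µg per g of body weight at 3 weeks of age. The untreated S302A group carried the same allele and received nothing. The WT DEN group had the wild-type allele and the same dose of DEN, and the untreated WT group had neither. Livers were taken 30 to 38 weeks after the treatment age, which the labels also give as an age of 33 to 41 weeks. The age of each single library, the hour of collection, the feeding state and the part of the liver taken are not in the labels, and the untreated groups are not described as vehicle-injected. The S302A change alters the protein, so a transcript level does not check the genotype labels.

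Replicate 3 of the S302A DEN group stood apart from the other 11 libraries. Symbols above the lowest listed value of 1 TPM numbered 13083 there and 10839 to 11653 elsewhere. The 20 most abundant symbols held 23.8% of the total there and 35.9% to 47.6% elsewhere. Its rank correlations with the other libraries were 0.877 to 0.913, against 0.937 to 0.980 among the 55 pairs without it. TPM keeps no depth, so counting precision is unknown. The labels do not say that libraries came from separate animals, so each p-value covers the spread among libraries, which may be technical. Of 8 hepatocyte markers, including Alb and Hnf4a, none was at the floor of 1 in any group.

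On GRCm38, in the GENCODE annotation, Acly lies at chr11:100476353-100528000, Me1 at chr9:86581371-86695953, Acaca at chr11:84129672-84401651 and Acacb at chr5:114146535-114250761. Fasn lies at chr11:120805846-120824547, Elovl6 at chr3:129532355-129638495 and Scd1 at chr19:44394455-44407879. Srebf1 lies at chr11:60199089-60222581, Mlxipl at chr5:135089890-135138382 and Thrsp at chr7:97412938-97417730. All 10 are protein-coding.

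Because most of the genes varied together across the libraries, the 250 bases before their RefSeq starts (GRCm38.p6) were read. Of the 10 genes 9 were matched, with 13 promoters, and Scd1 was not matched. For Acaca and Acacb the only matched windows, chr11:84195188-84195437 and chr5:114165268-114165517, lay inside the GENCODE span of the gene. The bases before those 2 spans were not read. The Thrsp window shown also lay partly inside the GENCODE span, with both of its marked matches, and the Elovl6 window with its last bases. Windows of Me1, and of further starts of Mlxipl and Srebf1, lay wholly or partly inside as well. Shown are the genes with the 3 largest fitted DEN changes in WT livers (Thrsp at chr7:97417551-97417800, minus strand, Fasn at chr11:120824548-120824797, minus strand, and Elovl6 at chr3:129532136-129532385, plus strand) and the gene with the smallest (Mlxipl, the more upstream of its annotated starts, at chr5:135089640-135089889, plus strand). Each is written 5′ to 3′ and ends 1 base before the start, and capitals mark matches to the motifs named below.
Thrsp: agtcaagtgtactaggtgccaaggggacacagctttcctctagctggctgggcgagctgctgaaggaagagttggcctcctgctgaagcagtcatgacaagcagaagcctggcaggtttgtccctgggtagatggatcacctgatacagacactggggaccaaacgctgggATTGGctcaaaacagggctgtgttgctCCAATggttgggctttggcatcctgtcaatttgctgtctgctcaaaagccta
Fasn: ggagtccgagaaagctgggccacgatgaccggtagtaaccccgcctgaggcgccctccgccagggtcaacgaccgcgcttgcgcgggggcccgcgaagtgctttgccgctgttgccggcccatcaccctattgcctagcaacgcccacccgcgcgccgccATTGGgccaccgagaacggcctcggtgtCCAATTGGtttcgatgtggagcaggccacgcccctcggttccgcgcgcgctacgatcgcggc
Elovl6: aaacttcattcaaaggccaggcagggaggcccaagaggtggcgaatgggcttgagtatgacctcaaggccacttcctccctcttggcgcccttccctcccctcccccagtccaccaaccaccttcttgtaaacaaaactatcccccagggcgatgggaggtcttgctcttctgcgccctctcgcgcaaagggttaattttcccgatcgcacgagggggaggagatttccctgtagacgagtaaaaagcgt
Mlxipl: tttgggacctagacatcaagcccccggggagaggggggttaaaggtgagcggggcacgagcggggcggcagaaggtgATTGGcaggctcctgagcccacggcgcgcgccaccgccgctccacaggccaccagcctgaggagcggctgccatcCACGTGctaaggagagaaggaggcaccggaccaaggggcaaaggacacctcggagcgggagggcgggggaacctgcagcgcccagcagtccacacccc

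The motifs searched on both strands were CCAAT (the NF-Y box, ATTGG on the other strand), CACGTG (an E-box, its own reverse complement), TCACNCCAC (a sterol regulatory element) and TATAAA, the core promoter box. The first of these, CCAAT, was in 7 of the 13 promoters of these genes, against 33.8% of 32851 RefSeq promoters of the same length. Thrsp held CCAAT letters from base -79 and from base -52. Fasn held them from bases -90, -62 and -59, where the last pair of matches overlap and lie on opposite strands. The other matches were in Acacb, Me1, Mlxipl and Srebf1, and Elovl6 held none of the 4 motifs. CACGTG was in 1 of 13, the Mlxipl promoter shown, against 6.02% of all promoters. TCACNCCAC was in 1 of 13, at the other Mlxipl start, against 1.05%, and TATAAA was in 1 of 13, Acacb, against 12.4%. Matches and their absence describe the letters in these windows only.

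Per unit of transcript length, Scd1 was the most abundant of the 10 genes, with a median of 989 TPM over the 12 libraries. Thrsp followed with a median of 256 TPM, then Mlxipl with 122, Me1 with 76.5, Acly with 73.2, Srebf1 with 57.0 and Fasn with 51.0 TPM. Elovl6 had a median of 13.4, Acaca 11.7 and Acacb 7.04 TPM. The neighbours in this order overlapped in range over the 12 libraries. Thrsp varied most, 20.3-fold between its highest and lowest library, then Scd1 11.6-fold and Fasn 10.4-fold. Mlxipl varied least, 2.13-fold.

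**Figure D1:**
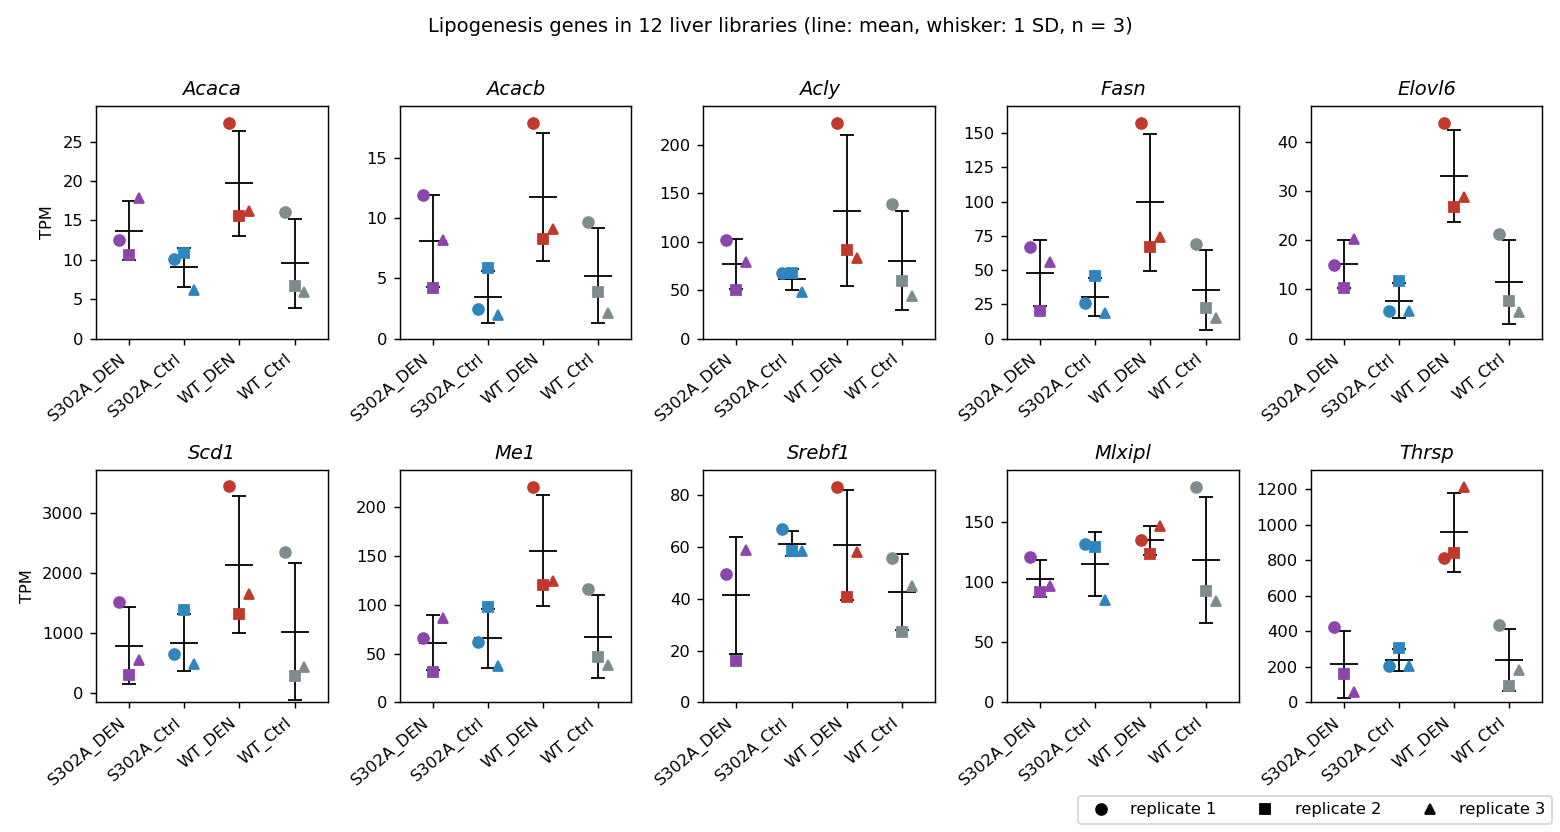
TPM of each of the 10 genes (y axis, linear, from 0 except for Scd1, where a whisker reaches below 0) in S302A DEN, untreated S302A, WT DEN and untreated WT livers, with 1 point per library, shaped by replicate number, and the mean ± 1 SD (n = 3). The 3 WT DEN libraries stand clear of the untreated WT libraries in Thrsp, Elovl6 and Me1, and replicate 1 is the highest untreated WT library in all 10 genes.

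Among the genes that supply substrate, Acly encodes ATP citrate lyase, which splits cytosolic citrate into acetyl-CoA and oxaloacetate. In S302A livers it was at 101, 50.5 and 78.9 TPM after DEN, against 67.4, 67.4 and 48.2 TPM untreated. In WT livers it was at 222, 91.3 and 82.6 TPM after DEN, against 138, 58.9 and 43.5 TPM untreated. Both DEN groups overlapped their untreated groups, and untreated WT replicate 1 stood above 2 of the 3 WT DEN libraries. Me1 encodes cytosolic malic enzyme, a source of NADPH. It was at 66.4, 30.7 and 86.7 TPM in S302A DEN livers, against 62.2, 97.4 and 37.5 TPM in untreated S302A livers. Levels in WT livers were 221, 120.3 and 125 TPM after DEN, against 116, 47.0 and 38.5 TPM untreated. All 3 WT DEN libraries lay above every untreated WT library and above every S302A DEN library.

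Acaca and Acacb encode the acetyl-CoA carboxylases that form malonyl-CoA, the cytosolic form that feeds synthesis and the mitochondrial form that restrains fatty acid import. In S302A livers Acaca was at 12.5, 10.7 and 17.9 TPM after DEN, against 10.04, 10.9 and 6.18 TPM untreated. In WT livers Acaca was at 27.3, 15.6 and 16.1 TPM after DEN, against 16.1, 6.65 and 5.93 TPM untreated. The groups overlapped in both genotypes, in WT livers through untreated replicate 1 alone. Acacb in S302A livers was at 11.9, 4.23 and 8.19 TPM after DEN, against 2.45, 5.89 and 1.96 TPM untreated. In WT livers Acacb was at 17.8, 8.29 and 9.10 TPM after DEN, against 9.65, 3.85 and 2.12 TPM untreated. Here too the groups overlapped in both genotypes.

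Fasn encodes fatty acid synthase, which builds palmitate. Levels in S302A livers were 67.1, 20.5 and 56.2 TPM after DEN, against 26.2, 45.8 and 19.0 TPM untreated. In wild-type livers the values were 157, 67.1 and 74.1 TPM after DEN, against 69.2, 22.5 and 15.2 TPM untreated. The WT groups overlapped through untreated replicate 1 alone. The S302A DEN libraries all lay below the WT DEN libraries, but the closest of each group differed by less than 1 TPM.

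Elovl6 encodes the elongase that takes palmitate to stearate. In S302A livers it was at 15.0, 10.4 and 20.2 TPM after DEN, against 5.61, 11.8 and 5.62 TPM untreated. In WT livers it was at 43.8, 26.8 and 28.7 TPM after DEN, against 21.2, 7.64 and 5.50 TPM untreated. The WT DEN libraries lay above every library of the other 3 groups. Scd1 encodes stearoyl-CoA desaturase, which makes oleate. It was at 1511, 306 and 551 TPM in S302A DEN livers, against 653, 1384 and 489.6 TPM in untreated S302A livers. Levels in WT livers were 3436, 1325 and 1648 TPM after DEN, against 2341, 296 and 443 TPM untreated. Scd1 overlapped between all groups, with untreated WT replicate 1 above 2 of the 3 WT DEN libraries.

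Srebf1 encodes the SREBP1 factors. The files give 1 value per gene, so SREBP1c cannot be told apart from the other product of the gene. Levels in S302A livers were 49.4, 15.9 and 58.7 TPM after DEN, against 66.9, 58.6 and 58.3 TPM untreated. In wild-type livers the values were 83.2, 40.7 and 58.2 TPM after DEN, against 55.9, 27.1 and 44.8 TPM untreated. It was the only one of the 10 genes whose untreated S302A libraries all lay above the untreated WT libraries. Mlxipl encodes ChREBP. In S302A livers it was at 121, 91.9 and 96.6 TPM after DEN, against 132, 129 and 84.9 TPM untreated. In WT livers it was at 135, 123 and 147 TPM after DEN, against 179, 92.5 and 84.2 TPM untreated. Its highest library was untreated WT replicate 1, and its S302A DEN libraries all lay below the WT DEN libraries.

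Thrsp (Spot 14) encodes a small lipogenic protein that responds to thyroid hormone and carbohydrate. Levels in S302A livers were 424, 159 and 59.7 TPM after DEN, against 203, 308 and 204 TPM untreated. Levels in WT livers were 816, 842 and 1213 TPM after DEN, against 436, 94.7 and 185 TPM untreated. The 3 WT DEN libraries lay above all 9 others. The lowest Thrsp value of all 12 libraries was that of S302A DEN replicate 3.

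**Figure D2:**
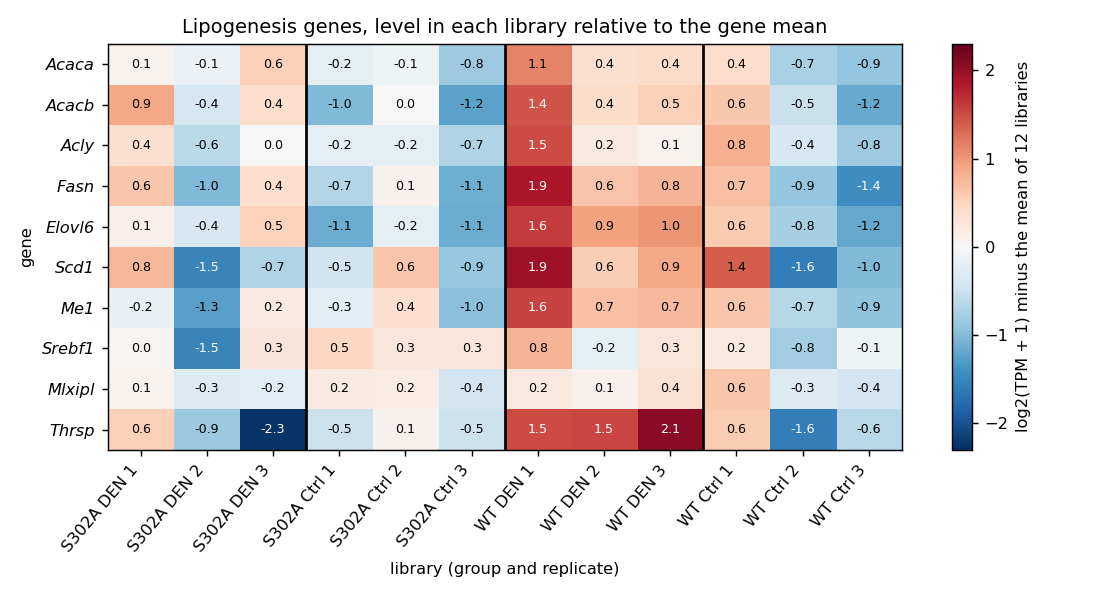
Level of each gene (rows) in each library (columns, by group and replicate) as log2(TPM + 1) minus the gene's mean over the 12 libraries; the number in each cell is that difference. WT DEN replicate 1 is the highest library for 8 of the 10 genes, and S302A DEN replicate 2 is the lowest of its group for 9 of 10.

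The libraries of a group differed for most genes at once. Untreated WT replicate 1 was the highest of its group in 10 of 10 genes, against 68.6% of all tested genes. WT DEN replicate 1 was the highest of its group in 8 of 10, against 62.5% of all tested genes. S302A DEN replicate 2 was the lowest of its group in 9 of 10, against 70.6%. S302A DEN replicate 3 was the highest of its group in 4 of 10, against 87.0% of all tested genes. Averaged over the 10 genes, S302A DEN libraries deviated from the gene means by 0.34, -0.81 and -0.08 on the log2(TPM + 1) scale and untreated S302A libraries by -0.38, 0.11 and -0.75. WT DEN libraries deviated by 1.36, 0.52 and 0.72, and untreated WT libraries by 0.66, -0.83 and -0.86. Untreated WT replicate 1 thus stood among the WT DEN libraries, and S302A DEN replicate 2 among the untreated ones.

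Whether DEN moved the pathway in wild-type liver was tested in a linear model of log2(TPM + 1), a scale on which changes of low genes are understated. WT DEN livers had a higher fitted level than untreated WT livers in 10 of 10 genes (9 under quantile normalization, where Mlxipl was at -0.025), against 70.3% of all tested genes. The median fitted change was 1.23 on the log2 scale, against 0.13 over all tested genes. The fitted change exceeded 1 in 7 genes, against 1.82% of all tested genes. None of the 10 passed the test at an adjusted p of 0.05 in limma, as did 0.132% of all tested genes. At an unadjusted p of 0.05, 6 genes were higher (Acaca, Acacb, Fasn, Elovl6, Me1 and Thrsp), against 6.89% of all tested genes.

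Thrsp had the largest fitted change, 2.25 with a 95% interval of 0.90 to 3.60 and an adjusted p of 0.260. Fasn was at 1.64 (0.40 to 2.88, adjusted p = 0.430), Elovl6 at 1.63 (0.69 to 2.57, adjusted p = 0.243) and Scd1 at 1.53 (-0.08 to 3.15, adjusted p = 0.622). Me1 was at 1.31 (0.26 to 2.36, adjusted p = 0.472), Acacb at 1.15 (adjusted p = 0.555), Acaca at 1.05 (adjusted p = 0.428) and Acly at 0.74 (adjusted p = 0.750). The transcription factor genes had the smallest fitted changes, 0.50 for Srebf1 (-0.43 to 1.43) and 0.27 for Mlxipl (-0.34 to 0.87). These intervals cover both a fall and a rise of the factors' transcripts.

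The groups did not overlap in 3 genes (Elovl6, Me1 and Thrsp), against 21.7% of all tested genes, so that this count is near the background. It was 9 of 10 without untreated WT replicate 1, against 43.5% of all tested genes, and 6 of 10 without WT DEN replicate 2, against 30.9%. Both of those settings were chosen after the values were seen. Thrsp passed the test when S302A DEN replicate 3, which enters through the shared estimate of spread, was left out (adjusted p = 0.0457). With libraries weighted by their quality, 7 genes passed, in a fit that gave weights of 0.0498 to S302A DEN replicate 3 and 3.45 to S302A DEN replicate 1. The count of all tested genes that passed here was 16 as reported and 1 to 2057 over the other settings. The 7 calls under 1 setting are therefore not read as particular to these genes.

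**Figure D3:**
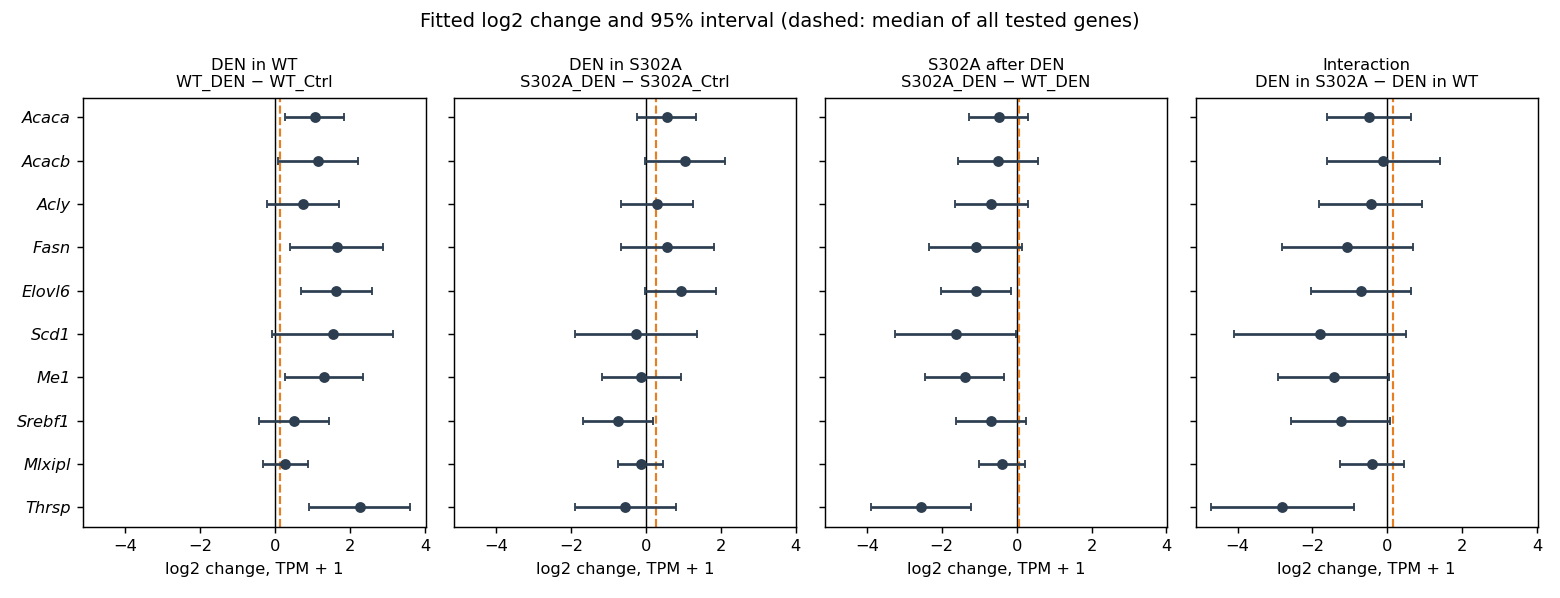
Fitted difference of log2(TPM + 1) (x axis) for each gene (y axis) in 4 comparisons, with its 95% interval; the dashed line is the median over all tested genes. In WT livers all 10 points lie above 0 after DEN (9 under quantile normalization), while in S302A against WT livers after DEN all 10 lie below 0 (9 with libraries weighted by quality).

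In S302A livers the same treatment left 5 genes with a fitted level above and 5 below the untreated group (4 and 6 under median-of-ratios scaling, 8 and 2 with libraries weighted by quality), against 79.5% above among all tested genes. The median change was 0.09, against 0.27 over all tested genes, and 0.60 with those weights. It was 0.43 without S302A DEN replicate 2 and -0.11 without untreated S302A replicate 3. None of the 10 passed the limma test, as did 0.619% of all tested genes, and none had an unadjusted p under 0.05, against 16.4% of all tested genes. The 5 genes fitted above 0 were those of the enzymes up to stearate other than malic enzyme. Acacb was at 1.05 (-0.02 to 2.12, adjusted p = 0.312), Elovl6 at 0.93 (-0.02 to 1.87, adjusted p = 0.310), Fasn at 0.57, Acaca at 0.55 and Acly at 0.29. Those fitted below 0 were Me1 at -0.12, Mlxipl at -0.14, Scd1 at -0.26, Thrsp at -0.55 (-1.90 to 0.80) and Srebf1 at -0.75 (-1.68 to 0.18, adjusted p = 0.383).

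No gene had groups that did not overlap in this comparison, against 15.8% of all tested genes higher and 2.68% lower. Without S302A DEN replicate 2 there were 5 (Acaca, Acacb, Acly, Fasn and Elovl6), against 38.5%, and without untreated S302A replicate 2 there were 3 (Acaca, Acacb and Elovl6), against 22.1%. The median over all tested genes moved to 0.01 when libraries were scaled by median of ratios, and that of the 10 genes moved to -0.23. In WT livers the same scaling moved the median of all tested genes to -0.02 and that of the 10 genes to 1.07.

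Set against WT DEN livers, S302A DEN livers had a lower fitted level in 10 of 10 genes (9 with libraries weighted by quality, where Acacb was at 0.10), while 60.2% of all tested genes had a higher one. The median difference was -0.88, against 0.07 over all tested genes, and 5 genes lay below -1, against 1.61% of all tested genes. Leaving out 1 library at a time, the median over all tested genes ranged from -0.20 to 0.25, so the direction of this background is not fixed. None of the 10 passed the limma test, as did 0.38% of all tested genes. At an unadjusted p of 0.05, 4 were lower (Elovl6, Me1, Scd1 and Thrsp), against 4.9% of all tested genes. Thrsp averaged 214 ± 188 TPM in S302A DEN livers and 957 ± 222 TPM in WT DEN livers (SD, n = 3 each). Its fitted difference was -2.55 (-3.90 to -1.21, adjusted p = 0.127). Scd1 followed at -1.62 (-3.24 to -0.01, adjusted p = 0.633), Me1 at -1.39 (-2.44 to -0.35, adjusted p = 0.359), Fasn at -1.09 (adjusted p = 0.713) and Elovl6 at -1.09 (-2.03 to -0.15, adjusted p = 0.496). The other 5 lay between -0.68 and -0.39.

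The S302A DEN libraries lay wholly below the WT DEN libraries in 5 genes (Fasn, Elovl6, Me1, Mlxipl and Thrsp), against 6.19% of all tested genes. It was 8 genes without S302A DEN replicate 1, against 7.31%, and 6 genes without S302A DEN replicate 3, against 37.5%. Without S302A DEN replicate 1, the highest Thrsp library of its group, Thrsp passed the test (adjusted p = 0.0319). Leaving out 1 library at a time, the Thrsp difference ranged from -3.26 to -1.85, and with libraries weighted by quality it was -1.48. The median difference was -0.49 without S302A DEN replicate 2, -0.57 without WT DEN replicate 1 and -0.44 with libraries weighted by quality.

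The difference between the genotypes' DEN responses was tested as an interaction, which shares its samples with the 3 comparisons above. All 10 fitted values were below 0 (8 without WT DEN replicate 1, 9 with libraries weighted by quality), while 66.6% of all tested genes were above 0, and the median was -0.89 against 0.14. None passed the limma test, as did 0.0413% of all tested genes, and only Thrsp had an unadjusted p under 0.05 and was lower, against 2.83% of all tested genes. Thrsp was at -2.80 (-4.71 to -0.90, unadjusted p = 0.00745, adjusted p = 0.535), and at -3.50 to -2.10 with 1 library left out at a time. Scd1 was at -1.80, Me1 at -1.43, Srebf1 at -1.25 and Fasn at -1.07, each with an adjusted p of 0.975 and an interval that held 0. A difference between the genotypes' responses is therefore not established for any of the 10 genes. The median was -0.51 without S302A DEN replicate 2, -0.48 without untreated WT replicate 3 and -1.35 without untreated WT replicate 1. That over all tested genes ranged from -0.13 to 0.32 with 1 library left out at a time. It was 0.03 under median-of-ratios scaling and 0.01 under quantile normalization.

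Untreated S302A livers had a higher fitted level than untreated WT livers in 6 genes, against 31.6% of all tested genes, and a lower one in 4, with a median difference of 0.02, against -0.07 over all tested genes. The median was 0.47 without untreated WT replicate 1 and -0.27 without untreated S302A replicate 2. None passed the limma test, as did 0.033% of all tested genes, and none had an unadjusted p under 0.05, against 1.48%. Srebf1 averaged 61.3 ± 4.91 TPM in untreated S302A livers and 42.6 ± 14.5 TPM in untreated WT livers (SD, n = 3 each). It was the only gene whose groups did not overlap, against 1.69% of all tested genes higher. Its highest untreated WT library, 55.9 TPM, was within 3 TPM of the lowest untreated S302A library, 58.3 TPM. For 9 of the 10 genes, all but Srebf1, the sign of the fitted difference turned under at least 1 of 22 other settings.

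Averaged over both genotypes, the DEN effect on Elovl6 was 1.28 (0.61 to 1.94, adjusted p = 0.0612), that on Fasn 1.11 (adjusted p = 0.176), on Acacb 1.10 (adjusted p = 0.139) and on Acaca 0.80 (adjusted p = 0.142). None of the 10 genes passed the limma test, as did 1.34% of all tested genes. These 4 had an unadjusted p under 0.05 and were higher, against 17.2% of all tested genes. Elovl6 passed when genes under 5 TPM were left out (adjusted p = 0.0397), under median-of-ratios scaling (adjusted p = 0.0401) and under quantile normalization (adjusted p = 0.0465). The median over the 10 genes was 0.72, against 0.21 over all tested genes. For the average S302A effect it was -0.51, against -0.00, with none passing the limma test, as did 0.0165% of all tested genes, and 2 with an unadjusted p under 0.05 that were lower, against 3.19%. With libraries weighted by quality that median was -0.0022, and it was -0.23 without untreated WT replicate 1, -0.31 without S302A DEN replicate 2 and -0.33 without WT DEN replicate 1. The sign of the averaged S302A effect turned in 5 of the 10 genes (Acacb, Acly, Scd1, Srebf1 and Mlxipl) under at least 1 of 21 other settings.

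The 10 genes varied together. Over the 45 pairs of genes the median Pearson correlation of log2(TPM + 1) was 0.77 across the 12 libraries, with a range of 0.30 to 0.96, and 0.77 once the group means were taken out. These points share libraries and, within a library, its scaling. Fasn had the highest median correlation with the other 9 genes, 0.93, and Srebf1 the lowest, 0.48. Thrsp had a median of 0.63 across libraries and of 0.36 within groups. Outside the list, the genes closest to the mean z-score of the 10 over the 12 libraries were Pcyt2 (r = 0.94), Tlcd1 (r = 0.94) and Serpinc1 (r = 0.94). Over the 11 libraries without S302A DEN replicate 3 they were Rnf123 (r = 0.98), Acsl5 (r = 0.97) and Rabl6 (r = 0.97), so that the 3 closest genes differed without that library.

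The genes around the pathway were read in 8 lists. Among 12 carbohydrate-response genes, the targets and partners of ChREBP, WT DEN livers had a higher fitted level than untreated WT livers in 12 of 12, against 70.3% of all tested genes, with a median of 0.47 and none passing the test. Khk, ketohexokinase, was among those with the smallest p, at 1.38 (adjusted p = 0.128). It was at 719, 638 and 714 TPM in WT DEN livers, against 408, 212 and 211 TPM in untreated WT livers. The groups did not overlap.

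In S302A livers the same list had 6 genes above and 6 below the untreated group, against 79.5% above among all tested genes, with a median of 0.09 and none passing. S302A DEN livers against WT DEN livers had a median of -0.73, with 10 of 12 lower and none passing, while 60.2% of all tested genes were higher. At an unadjusted p under 0.05, 7 of them were lower, against 4.9% of all tested genes. Slc2a2, the hepatic glucose transporter, was at 65.2, 56.5 and 46.4 TPM in S302A DEN livers, against 99.4, 108 and 80.9 TPM in untreated S302A livers. Its fitted change was -0.77 (adjusted p = 0.176), although its groups did not overlap. Tkfc, triokinase, passed the test in the DEN effect averaged over genotypes, where it rose by 0.84 (adjusted p = 0.0499). It was the only gene of this list to pass in any of the 7 comparisons, and the call was lost in 9 of 12 fits that each left out 1 library and under both other scalings.

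**Figure D4:**
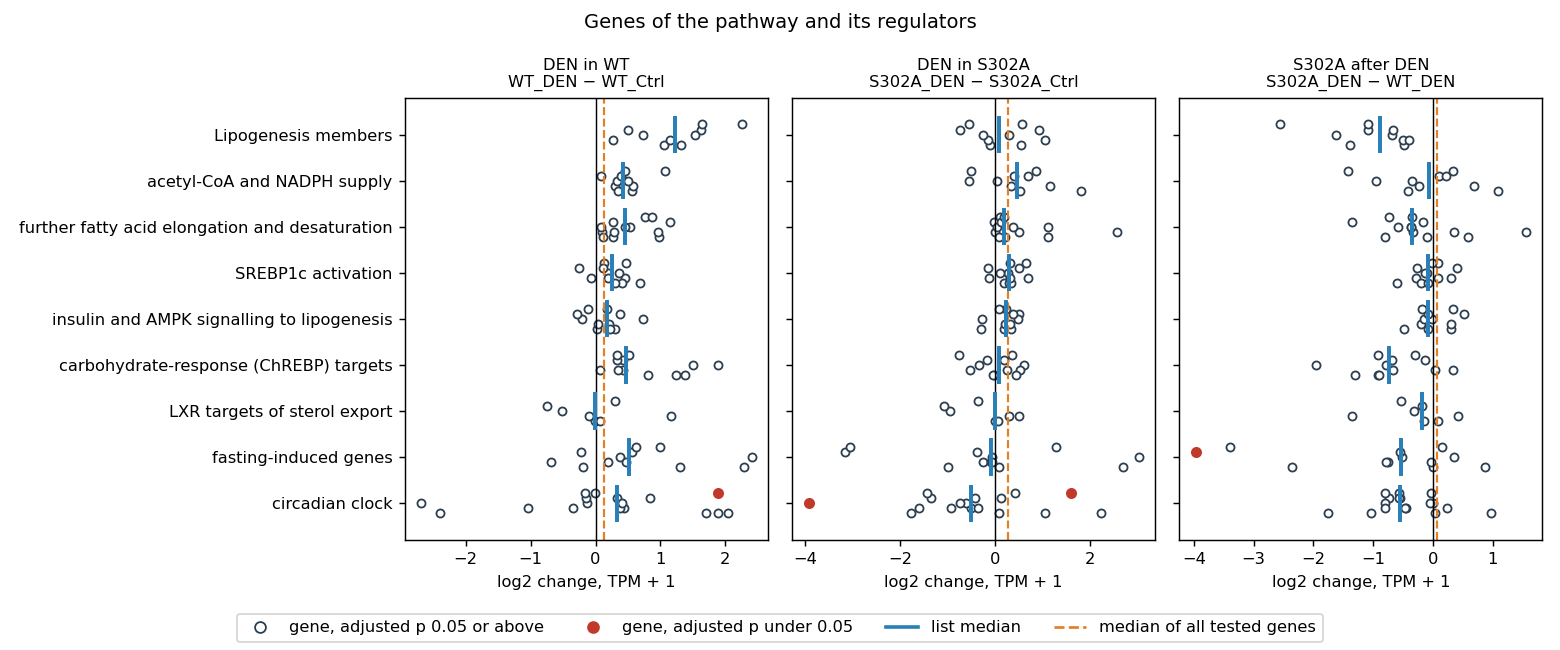
Fitted difference of log2(TPM + 1) (x axis) for the genes (points) of the 10-gene set and of 8 lists around it (rows) in 3 comparisons; vertical bars are list medians, the dashed line is the median of all tested genes, and filled points passed the test. After DEN the 10-gene set has the highest of the 9 medians in WT livers, and in S302A against WT livers after DEN it has the lowest.

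None of the genes in the lists of acetyl-CoA and NADPH supply (10 genes), further elongation and desaturation (13), SREBP1c activation (12) and insulin and AMPK signalling (11) passed the test in any comparison. Their medians in WT livers after DEN were 0.42, 0.45, 0.25 and 0.17, in that order, against 0.13 over all tested genes. In S302A livers they were 0.45, 0.19, 0.30 and 0.23, against 0.27 over all tested genes. Among the desaturases Fads2 was at 195, 187 and 214 TPM in WT DEN livers, against 124, 86.9 and 94.9 TPM in untreated WT livers, a change of 0.97 (adjusted p = 0.211). Elovl1, which elongates saturated and monounsaturated chains, was at 34.4, 34.5 and 65.1 TPM in S302A DEN livers, against 17.3, 23.6 and 17.0 TPM in untreated S302A livers (1.12, adjusted p = 0.0671). Its groups did not overlap. Among the genes that control SREBP processing, Insig2, which retains the precursor in the endoplasmic reticulum, had a fitted change of 0.45 in WT livers (adjusted p = 0.660) and of 0.70 in S302A livers (adjusted p = 0.191).

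Of 7 LXR targets of sterol export, Abcg8, part of the canalicular sterol transporter, fell by 0.91 in the averaged DEN effect (adjusted p = 0.0466). It was at 19.5, 14.5 and 27.8 TPM in S302A DEN livers, against 57.1, 32.4 and 42.8 TPM in untreated S302A livers. In wild-type livers the values were 19.96, 22.6 and 26.4 TPM after DEN, against 35.7, 32.6 and 50.5 TPM untreated. The DEN libraries lay below the untreated ones in both genotypes. The call was lost in 10 of 12 fits that each left out 1 library, with an adjusted p of at most 0.132 over all 21 alternatives. No other gene of that list passed in any comparison.

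The fasting-induced genes had no common direction. In the averaged DEN effect 6 of the 12 were fitted higher and 6 lower, with a median of 0.06, against 0.21 over all tested genes. In WT livers 9 were higher and 3 lower after DEN, against 70.3% higher among all tested genes, a count near the background. Their median was 0.52, against 0.13 over all tested genes. In S302A livers 4 were higher and 8 lower, against 79.5% higher among all tested genes. The median there was -0.08, against 0.27. Of these 12 genes, Fgf21 and Igfbp1 rose in the averaged DEN effect, by 2.49 (adjusted p = 0.0339) and 2.71 (adjusted p = 0.0484). Both were highest in S302A DEN replicate 3, with Fgf21 at 72.97 TPM and Igfbp1 at 223 TPM there. The other S302A DEN libraries had 13.3 and 5.84 TPM of Fgf21 and 14.6 and 12.04 TPM of Igfbp1. For both genes every DEN library lay above the untreated libraries of its genotype. Cyp4a10, a fatty acid hydroxylase with near-identical paralogs among which reads can be split, fell by 3.97 in S302A DEN against WT DEN livers (adjusted p = 0.0477). Of 17 circadian clock genes tested, 7 were fitted higher and 10 lower in the averaged DEN effect. The median of the 17 was -0.04, against 0.21 over all tested genes. Among them Nfil3 rose after DEN in S302A livers by 1.59 (adjusted p = 0.0319) and in WT livers by 1.88 (adjusted p = 0.0344). In the averaged DEN effect Arntl rose by 1.96 (adjusted p = 0.0221), and Dbp, Nr1d1 and Nr1d2 dropped by 3.30, 2.09 and 0.98 (adjusted p = 0.0191, 0.0435 and 0.0335). In S302A livers alone Dbp fell by 3.92 (adjusted p = 0.0398). The averaged DEN effect on Nfil3, 1.74 (adjusted p = 0.00479), was the only call in the pathway lists that passed under all 21 alternatives. Leaving out 1 library at a time ended the averaged calls in 2 of 12 fits for Dbp, 4 for Arntl, 8 for Nr1d2 and 9 each for Nr1d1, Fgf21 and Igfbp1. It ended the single-genotype calls of Nfil3 in 6 fits for S302A livers and 7 for WT livers, and that of Dbp in 8. The call of Cyp4a10 between the genotypes after DEN was lost in 11 fits. Clock state and feeding are known to influence lipogenic transcripts in liver, and the part of either in the DEN differences of the 10 genes was not tested.

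Dbp, a clock output factor, was at 1.45, 6.76 and 2.50 TPM in S302A DEN livers, against 90.9, 32.3 and 74.7 TPM in untreated S302A livers. In WT livers it was at 2.23, 2.56 and 5.50 TPM after DEN, against 47.2, 5.41 and 62.7 TPM untreated. The DEN libraries lay below the untreated libraries in S302A livers, while in WT livers untreated replicate 2 lay among the DEN libraries.

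Cell markers differed between groups as well. The summed level of the 8 hepatocyte markers was 64166 to 85258 TPM in S302A DEN livers and 66898 to 76366 TPM in untreated S302A livers. It was 108425 to 122176 TPM in WT DEN livers and 58382 to 93465 TPM in untreated WT livers. All 8 had a higher fitted level in WT DEN than in untreated WT livers, against 70.3% of all tested genes. Their median was 0.46, against 0.13 over all tested genes, and none passed the test. The part of the hepatocyte marker difference in the results above was not tested, and in tissue RNA fewer cells of a type cannot be told apart from less RNA per cell. Of 7 adipocyte markers, Adipoq, Plin1, Lep, Cfd and Retn were at the floor of 1 in all 4 groups. The summed level of the 7 was 14.3 to 91.1 TPM in S302A DEN livers, 13.5 to 17.0 TPM in untreated S302A livers, 12.004 to 20.3 TPM in WT DEN livers and 9.81 to 19.97 TPM in untreated WT livers. The value of 91.1 TPM was that of S302A DEN replicate 3, where Fabp4 was at 84.8 TPM, against 8.27 and 12.8 TPM in the other S302A DEN libraries. The summed level of 5 cholangiocyte markers was 60.7 to 140 TPM in S302A DEN livers, against 18.1 to 21.1 TPM in untreated S302A livers, and 21.1 to 30.3 TPM in WT DEN livers, against 20.8 to 36.7 TPM in untreated WT livers. Most of that sum was Spp1, osteopontin, a gene singled out after its values were seen, at 59.0, 55.3 and 122 TPM in S302A DEN livers, against 17.1, 13.7 and 14.9 TPM in untreated S302A livers. Spp1 rose by 2.2 after DEN in S302A livers (adjusted p = 0.0125), was higher by 1.8 in S302A DEN than in WT DEN livers (adjusted p = 0.0390) and rose by 1.1 in the averaged DEN effect (adjusted p = 0.0445). Leaving out 1 library at a time ended the first of these calls in 1 of 12 fits (without untreated S302A replicate 3, adjusted p = 0.0564) and each of the others in 9 of 12. Krt7 was at the floor of 1 in all 12 libraries, and Krt19 and Epcam were at the floor in all but S302A DEN replicate 3, with 1.93 and 1.10 TPM there. The summed level of 5 macrophage markers was 36.2 to 182 TPM in S302A DEN livers, 51.4 to 94.3 TPM in untreated S302A livers, 53.6 to 106 TPM in WT DEN livers and 43.6 to 98.1 TPM in untreated WT livers. The value of 182 TPM was again that of S302A DEN replicate 3. The part of these markers in the results above was not tested.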

How the data were processed

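Liver RNA of 12 mouse libraries was sequenced. Per the labels, column-purified total RNA went into Illumina TruSeq libraries read on a HiSeq instrument. Per the submitters' processing notes, the authors estimated transcript levels with kallisto on mm10 and deposited them as TPM per gene symbol. The kallisto version and annotation are not given in the sources used here. No deposited value lay below 1, so a value of 1 was read as 1 or less. Depth is unknown.

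Genes above 1 TPM in at least 3 libraries were kept. In R 4.3.3, limma 3.58.1 fitted log2(TPM + 1), a pseudocount of 1, in 1 model of the 4 groups with a mean-variance trend and 8 residual degrees of freedom. Tests of 7 contrasts were two-sided, with Benjamini-Hochberg adjustment over all 12120 genes and a threshold of 0.05. The fit was tested on simulated data. Tkfc is listed in the deposited tables under its older symbol Dak. The 10 genes, the 8 pathway lists and the marker lists were chosen with earlier results of these data known. From each pathway list the text names every gene that passed and genes among the 2 with the smallest p in each DEN contrast. Scaling, pseudocount, filter, library weights, moderation, a replicate block and each library's removal were varied. Promoter sequences came from RefSeq, and gene positions from GENCODE. Values of 1 gene of the pathway lists are not reported here.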

Additional observations from a re-analysis of the deposited data

How the results depend on the processing

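No lipogenesis gene passed the test in any comparison with other pseudocounts, with no filter on low values (genes equal in every library left out), with only the libraries of a comparison, with robust moderation or with the replicate number as a block. For the averaged DEN effect 1 gene passed with the stricter filter of 5 TPM, 1 under median-of-ratios scaling, 1 under quantile normalization and 6 with libraries weighted by quality. Those weights also gave 7 genes for DEN in WT livers, 1 for DEN in S302A livers and 3 for S302A against WT livers after DEN. Leaving out 1 library gave 0 to 3 for the averaged DEN effect (3 without S302A DEN replicate 2 and 1 without untreated WT replicate 1), 0 to 1 for DEN in WT livers and 0 to 1 for S302A against WT livers after DEN. The causes were not tested.

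The count of all genes that passed ranged over the settings from 1 to 2057 for DEN in WT livers (16 as reported), from 16 to 1609 for DEN in S302A livers (75), from 0 to 12 for untreated S302A against WT livers (4) and from 4 to 1996 for S302A against WT livers after DEN (46). It ranged from 2 to 508 for the interaction (5), from 17 to 3176 for the averaged DEN effect (162) and from 0 to 362 for the averaged S302A effect (2). Without S302A DEN replicate 3 it was 258 for DEN in WT livers and 700 for S302A against WT livers after DEN. Correlations between the deviations of same-numbered samples ranged from -0.19 to 0.28, with 5 of 18 above 0.1. They do not settle whether such samples were paired. With the replicate number as a block 0 of the 10 genes passed in each comparison, and 5 of all genes passed for DEN in WT livers and 87 for the averaged DEN effect.

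The median change of the 10 genes, leaving out 1 library at a time, was 0.91 to 1.71 for DEN in WT livers, -0.11 to 0.43 for DEN in S302A livers, -0.27 to 0.47 for untreated S302A against WT livers, -1.15 to -0.49 for S302A against WT livers after DEN, -1.35 to -0.48 for the interaction, 0.52 to 1.05 for the averaged DEN effect and -0.72 to -0.23 for the averaged S302A effect.

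For single genes of the 10 the sign of a fitted difference turned 26 times for untreated S302A against WT livers, in all but Srebf1, and 8 times for the averaged S302A effect, in 5 genes. In the other 5 comparisons it turned in 24 cases, each with an adjusted p above the threshold as reported. Under median-of-ratios scaling these were Acly for DEN in S302A livers (-0.021) and Mlxipl for the averaged DEN effect (-0.18). Under quantile normalization they were Mlxipl for DEN in WT livers (-0.025) and for the averaged DEN effect (-0.21). With library weights they were Scd1 (0.62), Mlxipl (0.038) and Thrsp (0.61) for DEN in S302A livers, and Acacb for S302A against WT livers after DEN (0.10) and for the interaction (0.12). Leaving out 1 library at a time, the DEN effect in S302A livers ranged from -0.89 to 0.26 for Scd1, from -0.46 to 0.31 for Me1 and from -1.25 to 0.15 for Thrsp. The interaction ranged from -0.59 to 0.30 for Acacb and from -0.92 to 0.000432 for Acly. The averaged DEN effect ranged from -0.29 to 0.16 for Srebf1 and from -0.040 to 0.23 for Mlxipl.

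With 3 libraries a group and no depth, changes of the size of those in Srebf1 and Mlxipl could not be told from the spread between libraries. The groups that did not overlap changed in number with the library left out, and so did the share of all tested genes. For DEN in WT livers 3 to 9 genes were higher, against 21.7% to 43.5%. For DEN in S302A livers 0 to 5 were higher, against 15.8% to 38.5%, and 0 to 1 lower, against 2.68% to 15.4%. For untreated S302A against WT livers 1 to 3 were higher, against 1.69% to 8.09%. For S302A against WT livers after DEN 5 to 8 were lower, against 6.19% to 37.5%.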

Other observations

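Genes of the pentose phosphate pathway stood highest of the S302A DEN group in replicate 3, the library that stood apart from the others. Pgd, 6-phosphogluconate dehydrogenase, an NADPH-forming enzyme, was at 432 TPM there, against 23.9 and 10.6 TPM in the other S302A DEN libraries. Taldo1, transaldolase, was at 373 TPM, against 114 and 93.4 TPM, and Tkt, transketolase, at 267 TPM, against 48.8 and 26.9 TPM. These last enzymes belong to the branch that forms no NADPH. G6pdx, glucose-6-phosphate dehydrogenase, the other NADPH-forming enzyme of the pathway, was at 20.4 TPM, against 2.66 and 1.15 TPM, and Scd2, a desaturase expressed mainly outside adult liver, at 105 TPM, against 3.78 and 2.29 TPM. In the same library the carbohydrate-response genes Pklr, liver pyruvate kinase (23.8 TPM, against 73.8 and 48.5 TPM), and Khk (216 TPM, against 385 and 256 TPM) were the lowest of their group, as was Thrsp. All 10 genes of acetyl-CoA and NADPH supply lay above both other libraries of the group and 8 of 12 carbohydrate-response genes below both, against 87.0% of all tested genes above and 5.21% below. These genes were picked after their values were seen, from 1 library.

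Taken as a ratio to Srebf1 within each library, a quantity chosen after the values were seen, Fasn, Elovl6, Me1 and Thrsp stood higher in every WT DEN library than in every untreated WT library, against 0.734% of all tested genes. In S302A livers the ratio stood higher after DEN in every library for Acaca, Acacb, Acly, Fasn and Elovl6, against 63.7% of all tested genes, a share at which the count says nothing of these genes. Fasn and Elovl6 met both, as did 0.322% of all tested genes. Because 63.7% of all tested genes met the S302A condition, that small share comes mainly from the WT condition. It does not show a pattern shared by the genotypes. The ratio was chosen after the values were seen, so neither small share is a test of these genes.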
